A study of Mus musculus with 55 samples.

Results

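A set of 9 genes of glycolysis and lactate handling was followed through the response of the mouse optic nerve head (ONH) to optic nerve crush. They are Hk1, Hk2, Pfkl, Aldoa, Aldoc, Pgk1, Eno2, Ldha and Ldhb, and they were taken by gene symbol from the annotation of the Affymetrix Mouse Genome 430A 2.0 array, through the probe sets that name a single gene. This gave 9 of the 12393 genes so named, with 20 of 20380 single-gene probe sets. A probe set whose name ends in x_at can bind related transcripts, such as those of pseudogenes. Each gene is described by its brightest probe set over all arrays, and others are given where they bear on a call. The mice were C57Bl/6 females, 6 to 8 weeks old at surgery. In crushed ONHs the left optic nerve had been compressed for 10 seconds at a site 1 mm behind the globe, and samples were collected at 1 or 3 days, at 1 or 3 weeks or at 3 months afterwards. Contralateral ONHs came from the right eyes of the same mice at the same times, and naïve ONHs from mice operated on neither eye. Each of the 11 groups had 5 biological replicates, each a pool of 2 ONHs from different mice, so that 55 arrays were available and the spread within a group is that between pools. A level is the linear intensity of a probe set in arbitrary units, which compares samples but not genes.

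Glycolysis splits glucose into pyruvate in the cytosol. Hexokinase traps glucose as glucose 6-phosphate, phosphofructokinase makes the committed step, aldolase cleaves the hexose bisphosphate, and phosphoglycerate kinase and enolase act on the triose products. Lactate dehydrogenase then interconverts pyruvate and lactate. Most steps have isozymes with typical homes. Hk1 is the constitutive hexokinase of neural tissue and Hk2 the inducible form of muscle and of dividing or activated cells. Aldoa is the widespread aldolase, whereas Aldoc is a classic astrocyte enzyme. Eno2 encodes the neuron-specific enolase. LDHA favours the conversion of pyruvate to lactate, and LDHB is the heart type subunit of tissues that oxidize lactate. In white matter, astrocytes are held to supply lactate to axons through monocarboxylate transporters.

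The 4 members with an adjusted p under 0.05 at 1 day carried the following stretches of 250 bases directly upstream of an annotated start site (RefSeq, GRCm38.p6, the first of 2 listed sites for Ldha and Aldoc), shown because this set holds both the members that rose and those that fell. Capitals mark ACGTG or GCGTG on either strand, the core letters of the hypoxia response element.
Hk2, chr6:82774455-82774704, minus strand: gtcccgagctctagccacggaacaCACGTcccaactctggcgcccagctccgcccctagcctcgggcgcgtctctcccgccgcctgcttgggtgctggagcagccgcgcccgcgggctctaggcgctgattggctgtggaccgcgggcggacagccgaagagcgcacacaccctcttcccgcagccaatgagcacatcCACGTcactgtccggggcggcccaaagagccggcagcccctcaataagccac
Ldha, chr7:46845554-46845803, plus strand: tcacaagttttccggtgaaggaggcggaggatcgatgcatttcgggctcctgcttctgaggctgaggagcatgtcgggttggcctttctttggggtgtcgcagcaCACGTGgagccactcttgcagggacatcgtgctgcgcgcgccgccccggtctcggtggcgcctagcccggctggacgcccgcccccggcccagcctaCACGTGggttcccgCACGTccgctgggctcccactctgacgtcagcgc
Aldoc, chr11:78322823-78323072, plus strand: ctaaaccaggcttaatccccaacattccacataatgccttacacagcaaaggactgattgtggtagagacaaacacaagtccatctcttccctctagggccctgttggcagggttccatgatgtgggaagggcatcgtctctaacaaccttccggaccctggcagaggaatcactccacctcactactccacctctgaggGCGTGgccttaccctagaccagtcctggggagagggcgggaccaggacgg
Ldhb, chr6:142507958-142508207, minus strand: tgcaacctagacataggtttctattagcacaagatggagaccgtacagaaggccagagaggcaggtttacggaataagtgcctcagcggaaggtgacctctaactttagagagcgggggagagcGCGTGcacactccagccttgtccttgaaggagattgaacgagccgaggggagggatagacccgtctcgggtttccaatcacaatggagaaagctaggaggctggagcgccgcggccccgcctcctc
ACGTG occurred at 2 places upstream of Hk2 and at 3 upstream of Ldha, where 2 of the places are palindromes that match on both strands. Aldoc and Ldhb each had GCGTG at 1 place and no ACGTG. The second listed sites of Ldha and Aldoc, not shown, also had GCGTG at 1 place and no ACGTG. Among the members that did not pass at 1 day, ACGTG occurred at 2 places for Pgk1 and at 1 place for sites 2 and 3 of Aldoa. Hk1, Pfkl and Eno2 had no ACGTG. All 9 members were matched to the promoter table, with 14 windows, of which 11 held either motif. Some members had several windows, and windows 2 and 3 of Aldoa overlap and hold the same match, so that the 14 are not independent. Over all 32851 windows of the same length, 16.6% held ACGTG, 28.2% GCGTG and 38.6% either. These are letter matches and say nothing of binding in these samples.

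The defining glial marker of the ONH was present throughout. Gfap, the astrocyte intermediate filament, lay between 6722 and 14274 on all 55 arrays. Transcripts of photoreceptors varied widely within groups, with a summed intensity over 12 markers from 650 to 85264 among the 45 arrays of naïve mice and of the times up to 3 weeks, and from 1253 to 125329 among the 10 arrays at 3 months. The 3-month arrays were a second batch and were compared only among themselves. Crushed ONHs at 1 day showed lower levels of 11 of 13 astrocyte and 11 of 11 oligodendrocyte markers and higher levels of 8 of 11 microglia and macrophage and 5 of 6 neutrophil markers, while 2 of the 11 microglia and macrophage markers were lower (25.4% of all genes higher and 29.7% lower). Only 4 neutrophil markers passed the intensity filter among naïve and contralateral arrays. The rest of the 6 passed it only through crushed arrays, so that their being higher was set by the filter. In bulk tissue, fewer cells of a type and less RNA per cell cannot be told apart.

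**Figure D1:**
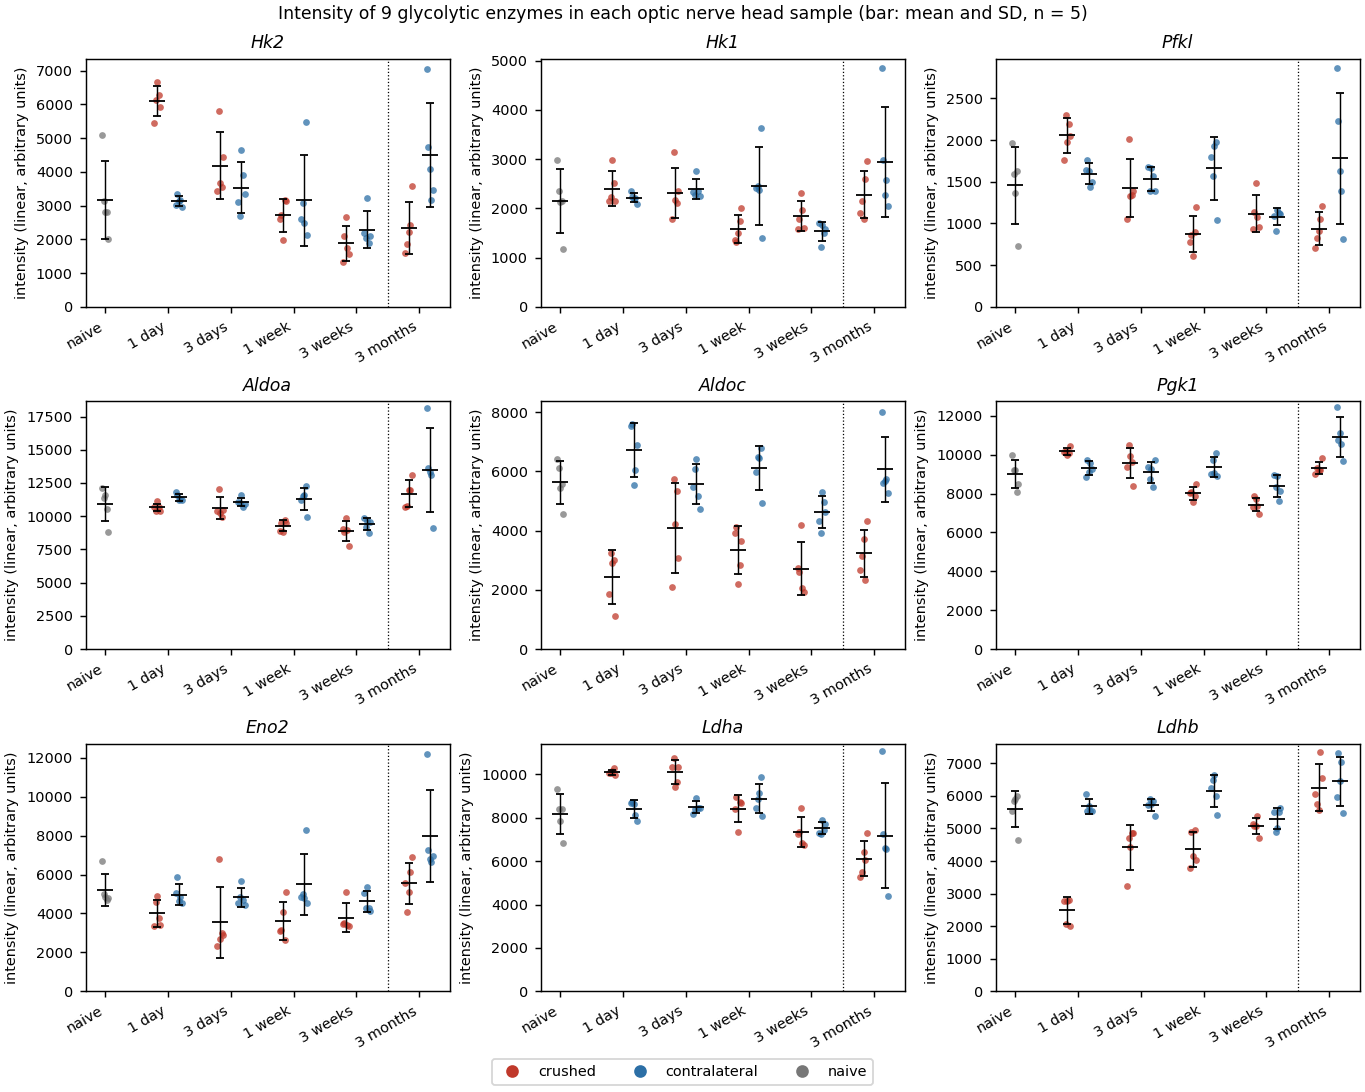
Intensity (linear, arbitrary units, axis from 0) of the 9 members in every sample, with naïve samples first and then crushed (red) and contralateral (blue) samples at each time; points are samples, bars the mean and SD (n = 5), and the dotted line sets off the separately hybridized 3-month batch. Hk2 at 1 day (5459 to 6646 in crushed ONHs, 2963 to 3354 in contralateral ONHs) and Ldhb at 1 day (2005 to 2795 in crushed ONHs, 5539.5 to 6059 in contralateral ONHs) show sides that do not overlap.

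At 1 day after crush, the members divided. Hk2 and Ldha rose, Aldoc and Ldhb fell, and the other 5 did not pass the test. Hk2 had intensities of 5459, 6124, 6646, 6284 and 5932 in crushed ONHs, against 3006, 3354, 3137, 3169 and 2963 in contralateral ONHs. Every crushed sample was above every contralateral one, and the rise was 1.95-fold (log2 fold change 0.96, SE 0.17, adjusted p = 5.3e-05, higher in 5 of 5 pairs). Ldha measured 10044, 10063, 10146, 10284 and 9978 in crushed ONHs and 8699, 8708, 8626, 8138 and 7828 in contralateral ONHs. The sides again did not overlap, with a smaller rise of 1.2-fold (log2 fold change 0.27, SE 0.054, adjusted p = 3.0e-04, 5 of 5 pairs).

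Ldhb, the other lactate dehydrogenase subunit, moved the opposite way. Its intensities were 2785, 2059, 2783, 2795 and 2005 in crushed ONHs, against 6059, 5542, 5689, 5539.5 and 5549 in contralateral ONHs. The highest crushed sample stood well below the lowest contralateral one. The log2 fold change was -1.21, SE 0.088, adjusted p = 9.5e-10, a level of 2486 ± 414 (SD, n = 5) in crushed ONHs and 5676 ± 223 in contralateral ONHs. The 3 further probe sets of Ldhb, some of them of the x_at kind, gave log2 fold changes from -1.32 to -1.26, all with an adjusted p under 0.05.

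Aldoc had 1851, 3255, 2904, 2996 and 1125 in crushed ONHs and 7536, 7595, 5545, 6052 and 6904 in contralateral ONHs. Here too the sides were apart, but crushed replicates 1 and 5 were lower than the rest. The log2 fold change of -1.56, SE 0.23, adjusted p = 7.1e-06 was the largest in size among the members at 1 day. The second, dimmer probe set of Aldoc gave a log2 fold change of -3.02, SE 0.41, adjusted p = 3.8e-06 in the same direction.

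Over all 10763 genes tested, 25.4% were higher and 29.7% lower in crushed ONHs at 1 day by the same adjusted p, so that 2 and 2 of 9 members is close to what the array shows as a whole. Aldoc and Ldhb also passed the 2-fold limit, whereas none of the members that rose did so (8.2% of all genes lower and 6.87% higher at 2-fold). At this time 7 members had sides that did not overlap, 4 of them higher (Hk2, Ldha, Pfkl and Pgk1) and 3 lower (Aldoa, Aldoc and Ldhb), with 22.4% and 24.9% of all genes. The calls above come from a model of all 4 early times, which share an estimate of the spread. A model of the 10 arrays at 1 day alone passed 8 of 9 members, which added Pfkl and Pgk1 as higher and Aldoa and Eno2 as lower (29.2% and 33.1% of all genes).

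Pgk1, which forms ATP in the pay-off phase, stood at the limit. It had 10124, 10186, 9981, 10109 and 10447 in crushed ONHs and 8856, 9729, 9091, 9586 and 9246 in contralateral ONHs, a log2 fold change of 0.13, SE 0.055, adjusted p = 0.053. Both other Pgk1 probe sets passed, with a log2 fold change of 0.26, SE 0.065, adjusted p = 0.0021 and a log2 fold change of 0.23, SE 0.084, adjusted p = 0.025. Both are of the x_at kind, which can bind related transcripts, whereas the brightest is not. Pfkl, the liver type phosphofructokinase, had 1762, 2300.2, 1979.6, 2195 and 2043 in crushed ONHs and 1643, 1759, 1624, 1439.9 and 1499 in contralateral ONHs (log2 fold change 0.37, SE 0.19, adjusted p = 0.10, 5 of 5 pairs). The remaining 3 did not pass either, with log2 fold changes of 0.10, SE 0.17, adjusted p = 0.62 for Hk1, -0.10, SE 0.050, adjusted p = 0.096 for Aldoa and -0.32, SE 0.20, adjusted p = 0.18 for Eno2.

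At 3 days after crush, 1 member was higher and 2 were lower. Ldha had 10326, 10764, 9436, 9653 and 10352 in crushed ONHs and 8166, 8379.6, 8926, 8463 and 8454 in contralateral ONHs, with no overlap (log2 fold change 0.25, SE 0.054, adjusted p = 8.8e-04). On a common median of the arrays, which lowers the log2 fold change of all genes at 3 days by 0.14 at the median, Ldha no longer passed (log2 fold change 0.11, adjusted p = 0.084). Aldoa, which did not pass on the deposited scaling, was lower on the common median (log2 fold change -0.20, adjusted p = 0.0019). Ldhb had 3230.1, 4694, 4435, 4861 and 4866 in crushed ONHs and 5723, 5892, 5742, 5842 and 5391 in contralateral ONHs (log2 fold change -0.39, SE 0.088, adjusted p = 0.0014). Crushed replicate 1 was the lowest, and the sides did not overlap.

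Eno2 had 2342, 6801, 2665, 3005 and 2875 in crushed ONHs and 4555, 4831, 5670.0, 4681 and 4410.2 in contralateral ONHs at 3 days. The other 4 crushed samples were below all contralateral ones, and replicate 2, which also held the most photoreceptor RNA of its group (a summed intensity of 81177, against 1500 to 25218 in the other 4), was above them. Eno2 passed with a log2 fold change of -0.56, SE 0.20, adjusted p = 0.026, a call that was lost without pair 1, 3 or 5 (adjusted p of 0.066 to 0.15) and in a model of 3 days alone (0.052). The percentages of all genes at 3 days were 25.5 higher and 16 lower. Hk2, with 3427 to 5802 in crushed ONHs and 2699 to 4656 in contralateral ONHs, now overlapped and did not pass (log2 fold change 0.24, SE 0.17, adjusted p = 0.26). Aldoc ranged from 2093 to 5758 in crushed ONHs and from 4734 to 6419 in contralateral ONHs (log2 fold change -0.53, SE 0.23, adjusted p = 0.068). It passed under 5 of the alternatives, which were a common median (adjusted p = 0.018), quantile normalization (0.037), leaving out pair 4 (0.042), a model of that time alone (0.046) and the photoreceptor covariate (0.047).

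**Figure D2:**
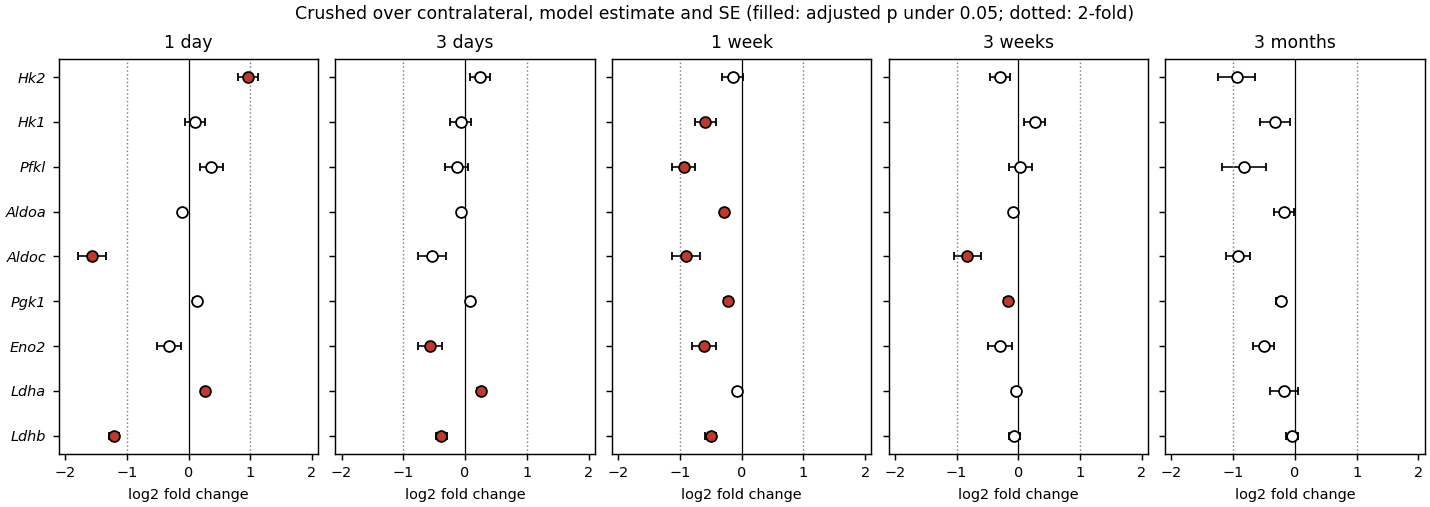
Log2 fold change of crushed over contralateral ONHs for the 9 members at each time, with the standard error of the model (n = 5 pairs); filled points have an adjusted p under 0.05 and dotted lines mark a 2-fold change. The filled points lie on both sides of 0 at 1 day and 3 days, and only on the lower side at 1 week and 3 weeks.

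At 1 week after crush, 7 of 9 members were lower in crushed ONHs and none was higher. Of all genes tested, 21.7% were lower and 21.7% higher. The median log2 fold change of the members was -0.50, against -0.01 over all genes. Pfkl had 779.7, 861, 606, 897 and 1197 in crushed ONHs and 1796, 1567, 1929, 1972 and 1039.5 in contralateral ONHs. Only contralateral replicate 5 reached into the crushed range, and the fall was the largest at this time (log2 fold change -0.93, SE 0.19, adjusted p = 4.0e-04). The second Pfkl probe set gave a log2 fold change of -0.78, SE 0.16, adjusted p = 5.4e-04. Aldoc had 3906, 4126, 2197, 2839.9 and 3653 in crushed ONHs and 5978, 6473, 6449, 6804 and 4920.5 in contralateral ONHs, without overlap (log2 fold change -0.90, SE 0.23, adjusted p = 0.0030). Its dimmer probe set gave a log2 fold change of -1.13, SE 0.41, adjusted p = 0.034.

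Hk1 had 1357, 1316, 1493, 1745 and 2006 in crushed ONHs and 2403, 2459.6, 2381, 3628 and 1393 in contralateral ONHs at 1 week. The sides overlapped through contralateral replicate 5, which was low, while replicate 4 was high (log2 fold change -0.59, SE 0.17, adjusted p = 0.0078, and adjusted p = 0.072 without pair 4). The dimmer Hk1 probe set fell further, with a log2 fold change of -1.24, SE 0.26, adjusted p = 7.9e-04. Eno2 had 3081, 3131, 4087, 2639 and 5107 in crushed ONHs and 4827, 5018, 4811, 8285 and 4514 in contralateral ONHs. Contralateral replicate 4 was far above the others, and it also held the most photoreceptor RNA of its group, with a summed intensity of 85264. The log2 fold change of -0.61, SE 0.20, adjusted p = 0.017 became -0.35 without pair 4 (adjusted p = 0.18) and also lost its call without pair 1 (adjusted p = 0.059). With the photoreceptor level as a covariate the same 7 members passed at 1 week.

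Ldhb remained low at 1 week, with 3774, 4898, 4165, 4939 and 4027 in crushed ONHs and 6251, 6497, 6638, 5995 and 5411 in contralateral ONHs (log2 fold change -0.50, SE 0.088, adjusted p = 1.1e-04). The sides of Ldhb did not overlap. The bright genes Aldoa and Pgk1 fell by little but evenly. Aldoa had 8859, 9452, 8801, 9730.0 and 9491 in crushed ONHs and 11193, 11528, 11588, 12240.3 and 9962 in contralateral ONHs (log2 fold change -0.28, SE 0.050, adjusted p = 1.3e-04), and its 3 other probe sets gave -0.32 to -0.31. Every Aldoa probe set, the brightest included, is of the x_at kind. Pgk1 had 8043, 8059, 7554, 7872 and 8498 in crushed ONHs and 8995, 9717, 9081, 10084 and 8904 in contralateral ONHs (log2 fold change -0.22, SE 0.055, adjusted p = 0.0026). Its dimmest probe set did not pass at 1 week (a log2 fold change of -0.14, SE 0.084, adjusted p = 0.18). Aldoa, Aldoc, Ldhb and Pgk1 were the 4 members whose sides were apart at 1 week, a pattern of 10.8% of all genes in this direction.

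Hk2 and Ldha, the members that had risen at 1 day, did not pass at 1 week. Hk2 measured 1969 to 3169 in crushed ONHs and 2125 to 5465 in contralateral ONHs (log2 fold change -0.15, SE 0.17, adjusted p = 0.50), and without pair 4 its sign turned (log2 fold change 0.01). Ldha measured 7363 to 8945 in crushed ONHs and 8075 to 9858 in contralateral ONHs (log2 fold change -0.08, SE 0.054, adjusted p = 0.27). On a common median of the arrays, however, Ldha passed as lower at 1 week (log2 fold change -0.14, adjusted p = 0.032).

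At 3 weeks after crush, Aldoc and Pgk1 were lower and no member was higher, with 12.6% of all genes lower and 12% higher. Aldoc had 2753, 2616, 4179, 2070.2 and 1923 in crushed ONHs and 4335, 3910.0, 5302, 4973 and 4636 in contralateral ONHs. Crushed replicate 3 lay within the contralateral range (log2 fold change -0.82, SE 0.23, adjusted p = 0.012, lower in 5 of 5 pairs, adjusted p = 0.057 without pair 4). The dimmer Aldoc probe set had a larger fall, with a log2 fold change of -1.92, SE 0.41, adjusted p = 0.0021. Pgk1 had 7294, 7852, 7699.8, 7345 and 6970.1 in crushed ONHs and 8952, 8317, 8889, 7639.6 and 8154 in contralateral ONHs (log2 fold change -0.17, SE 0.055, adjusted p = 0.027). The call of Pgk1 was lost without pair 1 or 3 (adjusted p of 0.16 and 0.11) and without an intensity trend (0.068). Its dimmest probe set did not pass at 3 weeks (log2 fold change -0.16, SE 0.084, adjusted p = 0.19). Ldhb had 4716 to 5377 in crushed ONHs and 4904 to 5624 in contralateral ONHs, with a log2 fold change of -0.06, SE 0.088, adjusted p = 0.67. The other 6 members had log2 fold changes from -0.30 (Hk2 and Eno2) to 0.27 (Hk1) at 3 weeks.

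At 3 months no member passed the test, and few of all genes did, with 0.277% higher and 0.382% lower. Aldoc, which had been lower at 1 day, 1 week and 3 weeks, had 2666, 3159, 3707, 2345 and 4326 in crushed ONHs and 8024, 5612, 5665, 5759 and 5284 in contralateral ONHs. The sides of Aldoc did not overlap, as for 3.57% of all genes in this direction, and the log2 fold change was -0.92, SE 0.19, adjusted p = 0.10. Without the pair as a block its adjusted p was 0.018. The dimmer probe set gave a log2 fold change of -1.34, SE 0.22, adjusted p = 0.059. Hk2 had 1602, 1854, 2215, 2431 and 3581 in crushed ONHs and 7053, 4721, 4088, 3169 and 3454 in contralateral ONHs. These sides overlapped through crushed replicate 5 (log2 fold change -0.94, SE 0.30, adjusted p = 0.24, lower in 4 of 5 pairs).

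Markers of other cells moved with the members at 3 months. Contralateral replicate 1 had the highest photoreceptor sum, 125329, and also the highest intensity of Hk1, Hk2, Pfkl, Aldoa, Aldoc, Pgk1, Eno2 and Ldha among the 10 arrays. Over these arrays the log2 intensity of a member correlated with the log2 photoreceptor sum at r = 0.29 (Ldhb) to 0.81 (Pfkl). The axon and ganglion cell sum, 6332 to 23054 in crushed ONHs and 29474 to 52543 in contralateral ONHs, correlated at r = 0.19 (Ldhb) to 0.91 (Aldoc), and the oligodendrocyte sum, 34636 to 45501 in crushed ONHs and 60109.9 to 76373 in contralateral ONHs, at r = 0.29 (Ldha) to 0.76 (Aldoc). The sum of 10 skeletal muscle markers was 36379 in crushed replicate 3 and 5285 in contralateral replicate 1, against 485 to 654 in the other arrays. It correlated with the members at r = -0.43 (Ldhb) to 0.40 (Ldha). The part of these cells in the 3-month values was not tested. Without pairs 1 and 5, which hold the highest photoreceptor sum on each side, Aldoc had a log2 fold change of -0.91 over 3 pairs, too few for its adjusted p to show stability. On its brightest probe set, no member reached 2-fold with an adjusted p under 0.05 at a time after 1 day, whereas the dimmer probe sets of Hk1 at 1 week and of Aldoc at 1 week and 3 weeks did. The percentages of all genes higher and lower by that rule were 7 and 2.47 at 3 days, 6.53 and 3.92 at 1 week, 2.76 and 1.77 at 3 weeks, and 0.248 and 0.258 at 3 months.

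The change between times was tested itself from 1 day to 3 weeks, as a difference of log2 fold changes. Hk2 was lower at 3 weeks than at 1 day by more than 2-fold (difference -1.26, SE 0.23, adjusted p = 2.8e-04), and Ldhb was higher (1.15, SE 0.12, adjusted p = 8.2e-07). At 2-fold, 5.66% of all genes were lower and 7.76% higher in that comparison. Ldha (-0.31, SE 0.077, adjusted p = 0.0034) and Pgk1 (-0.30, SE 0.078, adjusted p = 0.0045) were also lower at 3 weeks, so that 3 members were lower and 1 was higher by adjusted p alone (18.1% and 20.4% of all genes).

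For Ldhb, Aldoc and Hk2 a difference was already present by 3 days. From 1 day to 3 days the difference was 0.82, SE 0.12, adjusted p = 1.6e-04 for Ldhb and 1.03, SE 0.32, adjusted p = 0.033 for Aldoc, and -0.72, SE 0.23, adjusted p = 0.042 for Hk2 (12.4% of all genes higher and 4.24% lower). The call of Hk2 was lost without the pair as a block (adjusted p = 0.063), without a filter (0.065), without an intensity trend (0.058) and without pair 1, 3, 4 or 5. Only Aldoc passed 2-fold there (4.5% of all genes), and its call was lost on a common median (adjusted p = 0.056), after quantile normalization (0.052), without a filter (0.056) and without pair 2, 4 or 5. From 3 days to 1 week Ldha (-0.33, SE 0.077, adjusted p = 0.012) and Pgk1 (-0.30, SE 0.078, adjusted p = 0.022) were lower, with 7.44% of all genes. The call of Ldha was lost after quantile normalization (adjusted p = 0.070) and without pair 1, and that of Pgk1 on a common median (0.094), without a trend (0.055) and without pair 1, 2, 3 or 4. From 1 week to 3 weeks Hk1 (0.85, SE 0.24, adjusted p = 0.020), Pfkl (0.97, SE 0.26, adjusted p = 0.018) and Ldhb (0.44, SE 0.12, adjusted p = 0.021) were higher, with 7.24% of all genes. Each of these last 3 calls was lost without pair 1, 2 or 3. Both sides moved between these times. The mean intensity of Pfkl went from 868 to 1117 in crushed ONHs and from 1661 to 1080 in contralateral ONHs. For Hk1 it went from 1583 to 1847 in crushed ONHs and from 2453 to 1530 in contralateral ONHs. For Ldhb it went from 4361 to 5078 in crushed ONHs and from 6158 to 5306 in contralateral ONHs.

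Isozymes of the same step had different log2 changes in all 5 pairs at 1 day. Within pairs, the log2 change of Ldha exceeded that of Ldhb by 1.47 ± 0.24 (SD, n = 5 pairs, 1.27 to 1.82). The difference was 0.64 ± 0.31 at 3 days, 0.43 ± 0.23 at 1 week and 0.02 ± 0.08 at 3 weeks, positive in 5 of 5 pairs up to 1 week and in 3 of 5 pairs at 3 weeks. Hk2 exceeded Hk1 by 0.86 ± 0.14 at 1 day, and the order was turned at 3 weeks (-0.57 ± 0.12) and at 3 months (-0.62 ± 0.21), each in 5 of 5 pairs. Aldoa exceeded Aldoc by 1.46 ± 0.71 at 1 day and by 0.47 to 0.75 at the later times. The sizes depended on the probe set. With other probe sets or quantile normalization, Aldoa exceeded Aldoc by 1.44 to 2.92 at 1 day and by 0.72 to 1.84 at 3 weeks. Hk2 then exceeded Hk1 by 0.061 to 0.33 at 3 days and by 0.47 to 1.09 at 1 week. In an exact two-sided sign-flip permutation test, 12 of the 15 differences had p = 0.0625, the smallest that 5 pairs allow, so that none could pass the threshold (adjusted p = 0.078). The pair of Eno1 and Eno2 was left out, as Eno1 had no probe set to itself.

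**Figure D3:**
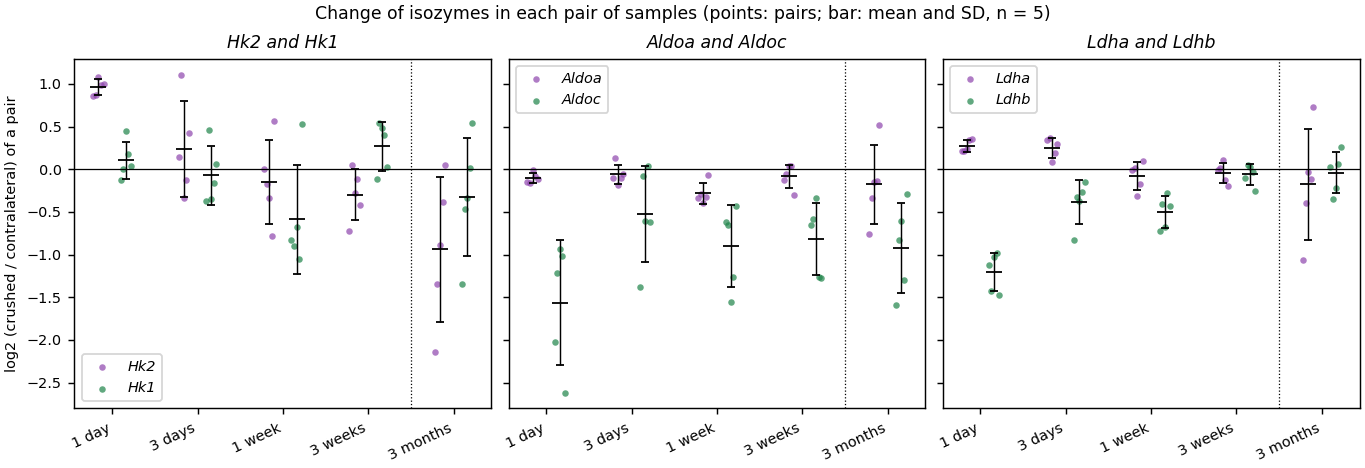
Log2 of crushed over contralateral intensity in each pair of samples for Hk2 and Hk1, Aldoa and Aldoc, and Ldha and Ldhb; points are pairs, bars the mean and SD (n = 5), and the dotted line sets off the 3-month batch. The points of Ldha and Ldhb are apart at 1 day (a mean difference of 1.47) and lie together at 3 weeks (0.02).

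The contralateral eye was compared with naïve tissue to see whether the uninjured side changed. None of the 9 members passed the test between contralateral and naïve ONHs at 1 day (0.0287% of 10440 genes higher and 0% lower), 3 days (0% and 0%) or 1 week (0.354% and 0.22%). At 3 weeks Aldoa was lower (6.32% of all genes lower and 4.22% higher), with 9877, 9163, 9651, 8756 and 9581 in contralateral ONHs and 12097, 11396, 11621, 10546 and 8838 in naïve ONHs. The ranges overlapped through naïve replicate 5, the lowest of its group for Hk1, Hk2, Pfkl, Aldoa, Aldoc, Ldha and Ldhb (log2 fold change -0.21, SE 0.062, adjusted p = 0.036). Without that replicate 5 members were lower at 3 weeks (Hk1, Pfkl, Aldoa, Aldoc and Ldha), and without any of the other 4 naïve replicates the call of Aldoa was lost (adjusted p of 0.054 to 0.11), as it was without contralateral replicate 2, 4 or 5. All 9 log2 fold changes at 3 weeks were below 0, from -0.44 (Hk1) to -0.07 (Ldhb), with a median of -0.21 against -0.01 over all genes. In the same comparison 4 of 13 axon and ganglion cell markers (median log2 fold change -0.38) and 2 of 8 endothelial markers were lower, and their part in the values of the members was not tested.

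Most members varied together to some degree over the 45 arrays of the first batch, which share groups and times, so that these correlations of log2 intensity are descriptions. Hk2 went with Ldha (r = 0.88) and Pgk1 (r = 0.81), and Aldoc with Ldhb (r = 0.71). Hk1, Pfkl and Aldoa correlated with each other at r = 0.79 to 0.86 and with Hk2 at r = 0.64 to 0.74. Aldoa also went with Aldoc (r = 0.57), so that the members did not form separate sets. Hk2 and Ldhb ran opposite (r = -0.50). Among 9508 genes of mean intensity 100 or more, the 3 most like Hk2 were Rrp1b (r = 0.91), Ldha and Mfhas1 (0.86), and the most like Ldha were Ncl (0.91), which encodes nucleolin, Faf1 (0.90) and the chaperonin subunit Cct2 (0.90). The most like Ldhb were Ctsf, a lysosomal cathepsin, Nicn1 and Ephx1, an epoxide hydrolase, with r of 0.95 to 0.96. For Aldoc they were Aif1l (0.91), Scel (0.89) and Spock2 (0.89). Pgk1 had Acly, the ATP citrate lyase, Prkca and Tpi1 (0.87 to 0.89), and Eno2 had Slc25a33, Vamp2, a protein of synaptic vesicles, and Mtfp1 (0.88 to 0.91). Aldoa was nearest to Copg1, Ik and Nolc1 (0.91 to 0.92), Pfkl to Zcchc7, Usp10 and Hk1 (0.86 to 0.88), and Hk1 to Syne1, Ap1b1 and Camsap1 (0.88 to 0.89).

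Levels of glial and neutrophil markers moved with Ldhb and Aldoc. The summed intensity of 13 astrocyte markers was 37746 to 51907 in crushed ONHs and 69241 to 74306 in contralateral ONHs at 1 day, and over the 45 arrays its log2 value correlated with Ldhb at r = 0.88 and with Aldoc at r = 0.79, but with Hk2 at r = -0.31 and with Ldha at r = -0.36. The oligodendrocyte sum was 31816 to 52988 in crushed ONHs and 66321 to 75836 in contralateral ONHs at 1 day, with r = 0.66 for Ldhb and 0.72 for Aldoc. The neutrophil sum ran the other way (r = -0.86 with Ldhb and -0.72 with Aldoc), with 9797 to 19616 in crushed ONHs and 655 to 1016 in contralateral ONHs at 1 day. At 3 weeks the astrocyte sum was 52117 to 63958 in crushed ONHs and 58306 to 68671 in contralateral ONHs. Hk2 and Ldha correlated with the neutrophil sum at r = 0.45 and 0.52. Their correlations were higher with the axon and ganglion cell sum, at r = 0.70 and 0.64, and were 0.39 and 0.51 with the endothelial sum. The part of these cells in the changes of Ldhb, Aldoc, Hk2 and Ldha was not tested. Axon and ganglion cell markers, whose sum was 10552 to 16639 in crushed ONHs and 14526 to 31598 in contralateral ONHs at 1 week, correlated with the members at r = 0.02 (Ldhb) to 0.80 (Aldoa). Their part in the changes at 1 week was not tested either.

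**Figure D4:**
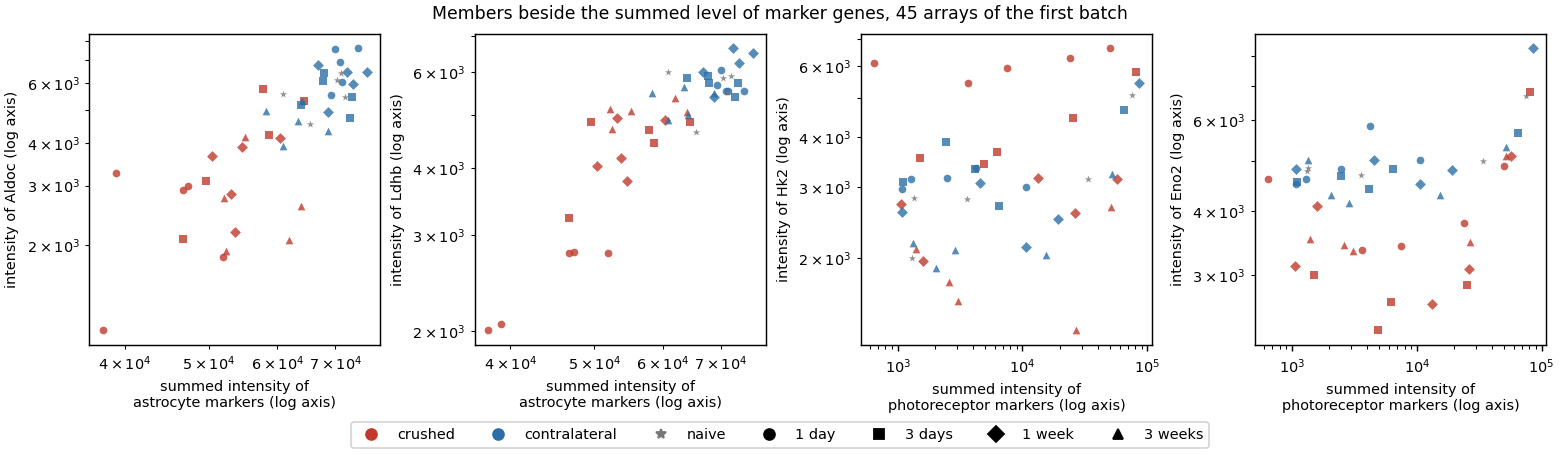
Intensity of Aldoc and Ldhb against the summed intensity of 13 astrocyte markers, and of Hk2 and Eno2 against that of 12 photoreceptor markers, on 45 arrays (log axes; colours are sides and symbols times). Crushed samples at 1 day, with astrocyte sums of 37746 to 51907, have the lowest Ldhb intensities (2005 to 2795), and the array with the most photoreceptor RNA (85264) has the highest Eno2 intensity.

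The other steps of the pathway were described by list, and each count at 1 day is to be read against the 25.4% of all genes that were higher and the 29.7% that were lower. Of the other glycolytic enzymes 9 were tested at 1 day, of which 4 were higher and 2 lower, and at 1 week 1 was higher and 4 were lower (21.7% of all genes each way). Pkm, pyruvate kinase, had a log2 fold change of 0.25, SE 0.092, adjusted p = 0.026 at 1 day and -0.32, SE 0.092, adjusted p = 0.0083 at 1 week. Pfkm, the muscle type phosphofructokinase, was lower by more than 2-fold at 1 day, with 1079.9 ± 246 in crushed ONHs and 2351 ± 94 in contralateral ONHs (SD, n = 5; log2 fold change -1.15, SE 0.11, adjusted p = 6.2e-08). Gapdh and Gpi1 had no probe set to themselves among those used and were left out.

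Of 8 transporters of glucose and lactate, 1 was higher and 5 were lower at 1 day (25.4% and 29.7% of all genes). Slc16a3, which encodes MCT4, the lactate exporter of glycolytic cells, had 1929 ± 687 in crushed ONHs and 459 ± 87.4 in contralateral ONHs at 1 day (log2 fold change 2.02, SE 0.22, adjusted p = 1.5e-07). It was still higher at 3 days (1.15, SE 0.22, adjusted p = 2.4e-04) and not at 1 week (0.11, SE 0.22, adjusted p = 0.71). The insulin-responsive glucose transporter Slc2a4 fell to 91.4 ± 39.8 in crushed ONHs, against 453 ± 46.4 in contralateral ONHs (log2 fold change -2.41, SE 0.24, adjusted p = 6.3e-08). Slc16a7 (MCT2), which takes up lactate, rose at 1 week (1.01, SE 0.13, adjusted p = 4.5e-06) and was lower at 3 weeks (-0.56, SE 0.13, adjusted p = 0.0042). Slc16a8 (MCT3), known from the retinal pigment epithelium, was lower at 1 day (-1.15, SE 0.31, adjusted p = 0.0040). At that time 2 of 7 pigment cell and pigment epithelium markers were also 2-fold lower (8.2% of all genes). The sum of these markers was 7151 to 13150 in crushed ONHs and 6754 to 30373 in contralateral ONHs. The part of pigment cells in the Slc16a8 values was not tested.

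Among 10 switches that set the fate of pyruvate and the rate of phosphofructokinase, 2 were higher and 3 lower at 1 day, shares near those of all genes (25.4% and 29.7%). Pdk2, a kinase that turns off pyruvate dehydrogenase, had 497 ± 163 in crushed ONHs and 1615 ± 60.5 in contralateral ONHs at 1 day (log2 fold change -1.76, SE 0.16, adjusted p = 2.2e-08), and was 2-fold lower at 1 week as well (-1.02, SE 0.16, adjusted p = 4.2e-05). Of 11 genes of glycogen and gluconeogenesis, 6 were higher and 3 lower at 1 day (25.4% and 29.7% of all genes). The 3 glycogen phosphorylases did not change alike. Pygl, the liver form, rose to 962 ± 283 in crushed ONHs, against 240.3 ± 50 in contralateral ONHs (log2 fold change 1.97, SE 0.21, adjusted p = 1.2e-07), and stayed higher through 3 weeks (1.47, SE 0.21, adjusted p = 4.3e-05). The brain form Pygb (-1.08, SE 0.12, adjusted p = 3.4e-07) and the muscle form Pygm (-1.56, SE 0.16, adjusted p = 8.6e-08) were lower at 1 day. Pcx, pyruvate carboxylase, an astrocyte enzyme in neural tissue, was lower from 1 day (-1.43, SE 0.23, adjusted p = 2.9e-05) to 3 weeks (-0.92, SE 0.23, adjusted p = 0.0072), and Pgm2 was higher at 1 day (1.04, SE 0.13, adjusted p = 8.2e-07).

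Of 7 genes of the pentose phosphate pathway, which branches off after hexokinase and yields NADPH, 5 were higher at 1 day and none was lower, though none reached 2-fold (25.4% of all genes higher and 29.7% lower). The 5 were Pgd, H6pd, Pgls, Rpia and Taldo1, named after their values were seen. The largest rise was that of Pgd, 6-phosphogluconate dehydrogenase, with 4846 ± 254 in crushed ONHs and 2595 ± 66.1 in contralateral ONHs (log2 fold change 0.90, SE 0.087, adjusted p = 4.2e-08). At 3 weeks 3 were higher and 2 lower (12% and 12.6% of all genes). The median log2 fold change of the list was 0.50 at 1 day, against -0.04 over all genes.

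Of 17 hypoxia-inducible factors and textbook targets, a set to which glycolytic genes are often added, 4 were higher and 5 lower at 1 day, shares near those of all genes (25.4% and 29.7%). Car9, carbonic anhydrase 9, rose to 95.2 to 1239 in crushed ONHs, against 25.9 to 49.1 in contralateral ONHs (adjusted p = 4.2e-07). All contralateral values of Car9 lay under 50, the intensity used as the limit for low values, so that no fold is given. Hmox1, heme oxygenase 1, was higher from 1 day (2.52, SE 0.20, adjusted p = 2.4e-09) to 3 weeks (1.19, SE 0.20, adjusted p = 2.1e-04). Adm, adrenomedullin, did not pass at 1 day (0.51, SE 0.29, adjusted p = 0.15) and was lower at 3 days (-1.38, SE 0.29, adjusted p = 7.4e-04) and 1 week (-1.71, SE 0.29, adjusted p = 8.9e-05). The list as a whole had a median log2 fold change of -0.02 at 1 day, against -0.04 over all genes.

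**Figure D5:**
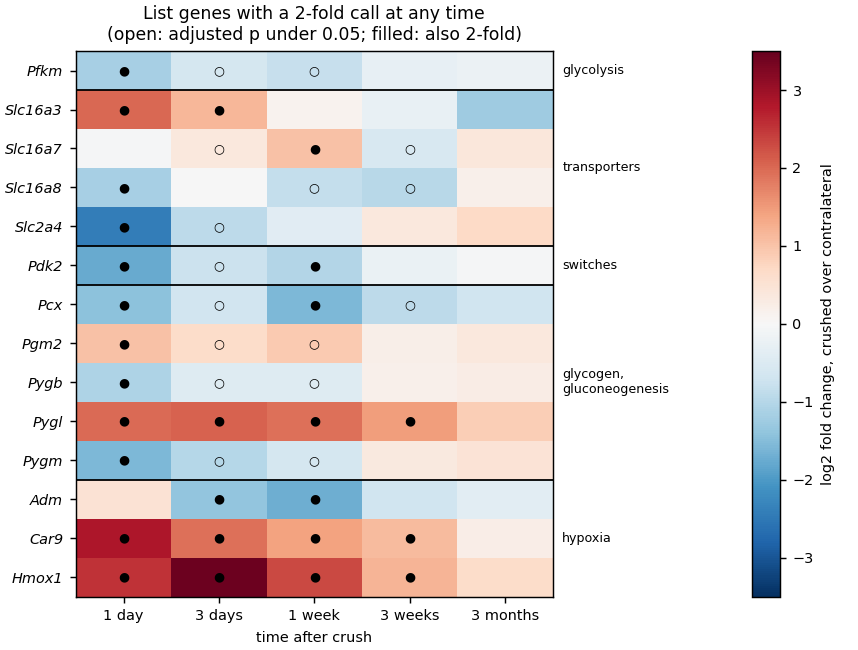
Log2 fold change of crushed over contralateral ONHs at 5 times for the genes of the pathway lists that passed 2-fold at any time; colour gives the log2 fold change, open circles an adjusted p under 0.05 and filled circles also a 2-fold change. Pygl, Car9 and Hmox1 are higher at all 4 early times, with the colour of Car9 set against contralateral levels that were under 50 at 1 day, whereas Slc16a3 is higher at 1 day and 3 days only and no gene is marked at 3 months.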

How the data were processed

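RNA of mouse ONHs was hybridized to Affymetrix Mouse Genome 430A 2.0 arrays (55 samples). The authors processed the scans in DChip with invariant set normalization and the PM/MM difference model and deposited 1 linear intensity per probe set and array. They analysed the first 45 arrays and the 10 arrays at 3 months as separate batches, which were not set against each other here. Intensities have no sampling depth, and the number of arrays limits the precision.

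Of 22690 probe sets, 64 array controls were left out. Intensities were set to at least 20 (9.90% of values were at this floor, 0 of them of a member) and log2 transformed. Probe sets with at least 5 arrays of the model at 50 or more were tested with limma 3.58.1 in R 4.3.3 (lmFit, eBayes with an intensity trend), with Benjamini-Hochberg adjustment over all probe sets and a threshold of adjusted p under 0.05. A 2-fold call also needed a log2 fold change of at least 1 in size. Crushed and contralateral samples were compared in 1 model of 40 arrays for the 4 times up to 3 weeks and in another of 10 arrays for 3 months, with the pair of samples as a block. A model of 25 arrays with no block set contralateral against naïve samples. Percentages of all genes count each gene through its brightest single-gene probe set. The limma code was tested on simulated data. Figures were drawn with matplotlib 3.10.9.

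The same-numbered left and right pools come from the same mice, which is the source of the pairing. The deviations of same-numbered samples from their group means correlated at r = -0.48 to 0.61 (median -0.065), and over 0.1 in 8 of 25 pairs. No 2 arrays were identical.

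The 9 members were all described. Genes of the pathway lists were named where they made a 2-fold call at any time, Pkm whatever its values, and for each member the 3 genes of highest Pearson correlation over 45 arrays. Members and lists were chosen with earlier results of these data known. Alternatives were the floor, the filter, quantile or common median scaling, no trend, no block, a model of each time alone, a photoreceptor covariate, other probe sets, the 3 criteria of the study and leaving out each replicate. Leaving out pairs 1 and 5 at 3 months was added after seeing the data.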

Additional observations from a re-analysis of the deposited data

Results flagged for a closer look

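Among 99 groups of 5 samples, 13 had a sample set apart, with a gap to its nearest neighbour that exceeded Dixon's 95% critical value as a share of the range of its group, where chance gives about 1 in 20. The 99 are the 9 members in each of 11 groups of the same arrays, and some arrays recur among the 13. They are thus not independent, and their number cannot be weighed against that share. The sample set apart was the highest of its group in 11 of the 13. Eno2 made up 5 of them. Naïve replicate 1 had an intensity of 6697, against 4689 to 4993 in the other 4 (gap of 0.849 of the range), and crushed replicate 2 at 3 days had 6801, against 2342 to 3005 (0.851). Contralateral replicate 4 at 1 week had 8285, against 4514 to 5018 (0.866), crushed replicate 3 at 3 weeks had 5117, against 3345 to 3530 (0.896), and contralateral replicate 1 at 3 months had 12205, against 6660 to 7284 (0.887). The photoreceptor sums of these 5 arrays were 75584, 81177, 85264, 51634 and 125329, each the highest of its group. The part of photoreceptor RNA in the Eno2 values was not tested array by array.

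Hk2 was high in contralateral replicate 4 at 1 week (5465, against 2125 to 3076 in the other 4, gap of 0.715 of the range) and in contralateral replicate 3 at 3 weeks (3236, against 1893 to 2178, 0.788). Hk1 was high in contralateral replicate 3 at 3 days (2758, against 2255 to 2355, 0.801), and Pfkl was low in contralateral replicate 2 at 3 weeks (909, against 1093 to 1164, 0.723). Aldoa was high in crushed replicate 2 at 3 days (12039, against 9956 to 10479, 0.749), and Aldoc in contralateral replicate 1 at 3 months (8024, against 5284 to 5759, 0.827). Ldhb was low in crushed replicate 1 at 3 days (3230.1, against 4435 to 4866, 0.736) and high in contralateral replicate 1 at 1 day (6059, against 5539.5 to 5689, 0.713). The photoreceptor sums of these high samples, in the order named, were 85264, 52092, 64664, 81177, 125329 and 10589, each the highest of its group. Those of the low samples of Pfkl and Ldhb, 15370 and 4897, were not the highest. The part of photoreceptor RNA in these values was not tested.

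The crush effect differed between times by more than 2-fold for 3 members in limma contrasts. The log2 fold change of Hk2 at 3 weeks less that at 1 day was -1.26 (adjusted p = 2.8e-04), and that of Ldhb was 1.15 (adjusted p = 8.2e-07). The log2 fold change of Aldoc at 3 days less that at 1 day was 1.03 (adjusted p = 0.033).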

How the results depend on the processing

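The 2-fold calls of Aldoc and Ldhb at 1 day and the 2-fold differences of Hk2 and Ldhb between 3 weeks and 1 day were made under all alternatives run on those counts, the 3 criteria of the study included for 1 day. Of the counts of members that passed, that at 1 day was 8 in a model of that time alone (4 reported), that at 3 weeks was 1 without an intensity trend (2 reported) and 1 to 2 with a replicate left out, and that at 1 week was 5 to 7 with a replicate left out. Under the other alternatives the count at 1 week was 5 to 8, the highest on a common median, where Ldha was added as lower. The count at 3 days was 2 to 4 with a replicate left out and 3 to 4 under the other alternatives. A model of each time alone gave 5 at 1 week (Hk1 and Eno2 lost), 3 at 3 weeks (Eno2 gained) and 3 at 3 days, where Aldoc took the place of Eno2. Without the pair as a block, 1 member passed at 3 months (Aldoc, adjusted p = 0.018), against 0 with it, and 6 passed at 1 day. The count at 3 weeks between contralateral and naïve ONHs was 0 without a trend and after quantile normalization, and 0 to 5 with a replicate left out (1 reported). No paired analysis was possible for that comparison because naïve mice share no animals with the others. Counts of 2-fold calls moved on a common median to 1 at 1 week (Pfkl), to 1 between 3 weeks and 1 week, and to 0 between 3 days and 1 day, where no filter and quantile normalization also gave 0. With a replicate left out these counts were 0 to 2 at 1 week, 0 to 2 between 3 weeks and 1 week, 0 to 1 between 3 days and 1 day and 0 to 1 between 1 week and 3 days. The highest values came without replicate 5, except between 3 days and 1 day, where the call of Aldoc was lost without it. The cause was not tested.

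Reversed signs were confined, among the members and alternatives run, to log2 fold changes that had not passed. Hk1 gave -0.087 at 1 day and 0.18 at 3 days on its other probe set, and -0.21 to 0.0018 at 3 days with a replicate left out (the upper value without replicate 1). Hk2 gave -0.33 to 0.011 at 1 week with a replicate left out (the upper value without replicate 4). Ldha gave 0.00066 at 3 weeks after quantile normalization, and at 3 months 0.022 with the photoreceptor covariate and -0.40 to 0.047 with a replicate left out (the upper value without replicate 1). Ldhb at 3 months gave 0.012 on a common median, 0.024 with the covariate and -0.12 to 0.033 with a replicate left out (above 0 without replicate 2 or 3). Pfkl at 3 weeks gave -0.060 on its other probe set and -0.047 to 0.10 with a replicate left out (below 0 without replicate 2 or 3). Pgk1 gave -0.067 at 3 days on a common median, and the difference of Ldha less Ldhb at 3 months was -0.29 to 0.11 with a replicate left out.

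At 3 months 5 pairs leave 4 residual degrees of freedom, and bulk arrays with 2 ONHs a sample do not separate cell types.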
